A study of Mus musculus with 2 samples.

Results

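S100a8 and S100a9 are 2 of the 32286 genes counted in the series, taken by their symbols. Their messages are described here by granulocyte stage, by monocyte type and in cells taken not to make them. S100a8 (ENSMUSG00000056054) lies on chromosome 3 from 90668978 to 90670035 (plus strand), and S100a9 (ENSMUSG00000056071) from 90692632 to 90695721 (minus strand) of GRCm38 in the GENCODE annotation. The genes are transcribed towards each other, with starts 26743 bases apart and a gap of 22596 bases between their 3' ends. The data are droplet counts of RNA from dissociated lungs of BALB/c mice that had received 4T1 mammary carcinoma cells in the mammary fat pad and were analysed on day 14. One library came from animals given an IgG antibody and 1 from animals given the antibody S100A4-11, so both groups carried tumours and no tumour-free lung was measured here. The series title names S100A4 inhibition and the pre-metastatic niche, and the comparison between the libraries asks what the antibody changed in the lung. The labels give neither the number of animals per library nor the dose, and the protocol speaks of tumour tissue where the other labels say lung. With 1 library per group there was no test, and every interval below is an exact 95% interval that covers counting error only.

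S100A8 and S100A9 are small calcium-binding proteins that pair as calprotectin, the main cytosolic protein of neutrophils, where it also binds zinc and manganese. Released from cells, the pair acts as an alarmin through TLR4 and the receptor RAGE. Neutrophils carry the proteins from their bone marrow stages on, classical monocytes carry them at lower levels, and both proteins have been described in tumour-bearing mice as attractants of myeloid cells to the lung before metastasis.

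The bases before each start are shown because the levels of both genes followed the same order over the granulocyte stages, and motifs of myeloid factors can be set beside them. They come from the RefSeq promoter table of GRCm38.p6, in which both genes were found, and are written 5' to 3' on the strand of the gene. Of the 250 bases before the RefSeq start that were searched, the 157 of S100a8 that precede every GENCODE transcript are shown, with 30 bases around its TATA box. Capitals mark the matches to any of 6 motifs searched on both strands. They were the motif TTNNGNAA of C/EBP factors, the motif GAGGAA of the factor PU.1, the motif TTCNNNGAA of STAT factors, the motif TGANTCA of the factor AP-1, the TATA box TATAAA and, by name, the motif of NF-kB.
S100a8 chr3:90668821-90668977 plus strand: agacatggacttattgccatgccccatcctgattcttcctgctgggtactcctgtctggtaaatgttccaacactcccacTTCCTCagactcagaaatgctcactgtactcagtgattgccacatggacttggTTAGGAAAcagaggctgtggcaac
S100a8 chr3:90669029-90669058 plus strand: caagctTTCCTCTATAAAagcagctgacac
S100a9 chr3:90695722-90695971 minus strand: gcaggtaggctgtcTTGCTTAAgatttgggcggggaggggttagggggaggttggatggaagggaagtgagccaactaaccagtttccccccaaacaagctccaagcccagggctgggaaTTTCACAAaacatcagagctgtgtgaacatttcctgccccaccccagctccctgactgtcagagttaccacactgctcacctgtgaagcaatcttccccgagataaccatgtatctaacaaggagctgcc
S100a8 held 1 C/EBP match, 2 PU.1 matches and 1 TATA box, the box ending 25 bases before the start and directly preceded by a PU.1 match. S100a9 held 2 C/EBP matches, and none of the matches overlapped. Among 32817 promoters in windows of the same length, 36.8% held a C/EBP match, 23.3% a PU.1 match, 12.4% a TATA box, 17.6% an NF-kB match, 7.01% a STAT match and 6.75% an AP-1 match. A match is a description of the letters and not a bound site.

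After removal of called doublets and poor barcodes, 13599 cells of the IgG library and 11755 of the S100A4-11 library remained, with medians of 4022 and 3660 molecules (UMIs, unique transcript tags) per cell. Cells were clustered without S100a8 and S100a9, so their levels did not shape the 38 clusters, of which 32 received the name of a class from marker genes and 6, with 6.20% and 3.50% of the cells, received none. The immature granulocyte-like class had the granule genes Ngp in 84.7% and 83.6% of its cells and Ltf in 27.6% and 30.2%, while Elane and Mpo, which mark the earliest granulocytes, were in under 1 percent and the cycling gene Mki67 in 1.79% and 1.68%. Of its 16 markers 7 were in at least 25 percent of its cells (median over the markers 9.97% and 10.1% of cells), whereas all 14 resting neutrophil markers were (median 96.9% and 94.3%), with 13 and 12 of 16 activated ones. By marker presence alone the class thus looks mature, and its name rests on granule genes that are more frequent in it than elsewhere, with Ngp in 13.6% and 13.6% of resting cells. The resting mature neutrophil-like class was also led by Cxcl3 and G0s2, and the larger cluster of the activated class by Ccrl2, Il1rn and Ptgs2. The classical monocyte-like class had Ccr2 in 93.2% and 94.6% and Ly6c2 in 78.4% and 81.9% of its cells. The libraries share 266 barcodes, 243 of them among the kept cells.

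In both libraries the granulocyte classes held most of the message of S100a8 and S100a9, and the level stepped down from the immature to the activated class. In immature granulocyte-like cells (391 and 298 cells), S100a8 took 10.1% and 9.97% of the UMIs of the class, which as counts scaled to the class total (CPM) was 100728 in the IgG library (100417 to 101040) and 99672 in the S100A4-11 library (99295 to 100051). In resting mature neutrophil-like cells (1270 and 1015), it was at 57104 and 58398 CPM, and in activated mature neutrophil-like cells (1135 and 1104) at 20148 and 18284.5 CPM. S100a8 was thus 4.9995-fold (4.96 to 5.04) higher in the immature than in the activated class of the IgG library and 5.45-fold (5.40 to 5.50) higher in the S100A4-11 library. A coarser clustering that named no resting class gave 2.32 and 2.40 for the same contrast.

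S100a9 followed the same order with smaller steps. Its levels were 115468 and 111413 CPM in the immature class, 88668.5 and 86877 CPM in the resting class and 50973 and 46950.5 CPM in the activated class. The immature to activated contrast of S100a9 was 2.27-fold (2.25 to 2.28) in the IgG library and 2.37-fold (2.36 to 2.39) in the S100A4-11 library. These folds are between CPM, and immature cells also held more UMIs, with median depths of 9323 and 8297 against 3071 and 2953 in the activated class. Per cell, the mean count of S100a8 was 1028 and 899 UMIs in the immature class and 63.8 and 57.9 in the activated class, a contrast of 16.1 and 15.5.

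Cells of neighbouring stages overlapped more for S100a9 than for S100a8. In the IgG library 5.28% of resting cells lay above the immature median of S100a8 CPM and 15.4% above that of S100a9, and in the S100A4-11 library 5.52% and 14.98%. No activated cell of either library reached the immature median of S100a8, while 0.969% and 1.63% reached that of S100a9. Within the activated class the spread was wide. The 10th, 50th and 90th percentiles of S100a8 were 1.40, 37 and 158 UMIs per cell in the IgG library and 2, 31 and 148 in the S100A4-11 library. One of its clusters, of 209 shallow cells, had a median of 8 and 10 UMIs of both genes per cell, and without it the S100a8 contrast was 4.80 and 5.22.

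Immature cells made up 2.88% of the kept cells of the IgG library and held 46.8% of all S100a8 UMIs and 37.0% of all S100a9 UMIs. In the S100A4-11 library they made up 2.54% and held 42.8% and 33.2%. The resting class held 40.7% and 43.8% of S100a8 and the activated class 8.44% and 10.2%. Classical monocyte-like cells held 0.531% and 0.419%. The message of S100a8 in these lungs was thus mostly that of immature and resting cells, and activated cells, 8.35% and 9.39% of all cells, held a larger share of S100a9 (14.7% and 18.2%) than of S100a8.

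**Figure D1:**
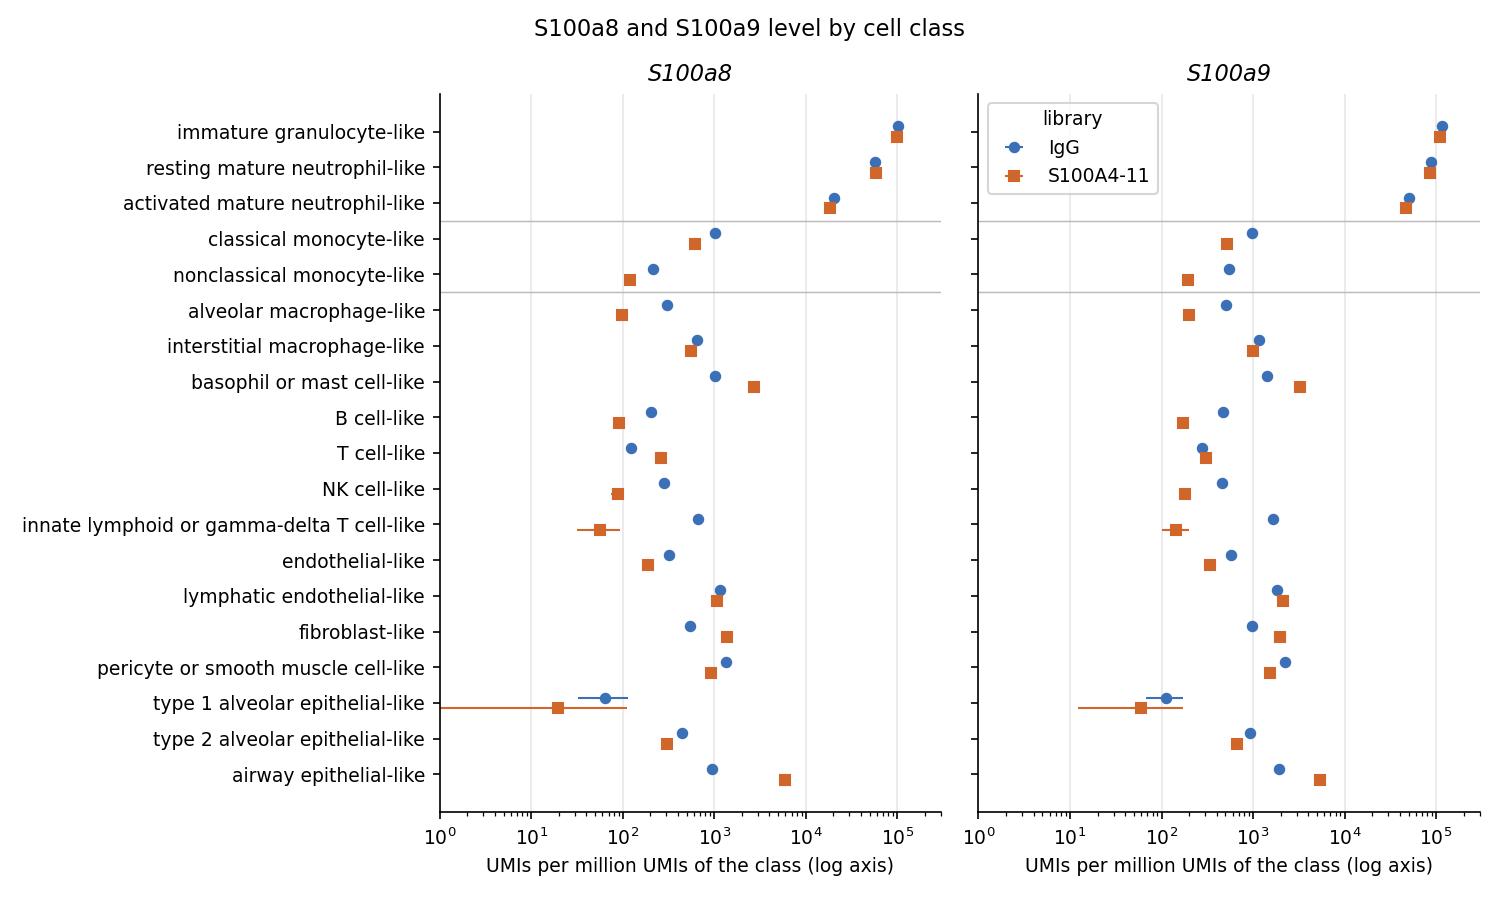
Level of S100a8 (left) and S100a9 (right) in CPM of each named class, on a log axis, for the IgG library (circles) and the S100A4-11 library (squares), with bars for the exact 95% Poisson interval. The 3 granulocyte classes lie between 18284.5 and 115468, the highest value of any other class is 5961 (S100a8 in airway epithelial-like cells of the S100A4-11 library).

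Between the libraries, neither gene differed by 1.5-fold in any granulocyte class. The ratio of S100A4-11 over IgG for S100a8 was 0.990 (0.985 to 0.994) in the immature class, 1.02 (1.02 to 1.03) in the resting class and 0.908 (0.898 to 0.917) in the activated class. For S100a9 it was 0.965 (0.960 to 0.969), 0.980 (0.976 to 0.984) and 0.921 (0.915 to 0.927). Among all genes measured with at least 20 UMIs, 7.09% of 7503 passed 1.5-fold with an interval excluding 1 in the immature class, 5.70% of 8216 in the resting class and 6.41% of 8413 in the activated class. The counting intervals are narrow because S100a8 and S100a9 are abundant, and they do not measure how much animals or libraries of one treatment would differ. When each library was clustered alone, the IgG library had no immature class, and the ratios became 0.612 for S100a8 and 0.767 for S100a9 in the resting class and 0.595 and 0.747 in the activated class. The cause was not tested.

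The ratio of S100a9 to S100a8 differed between the stages. These are 5' tags, 1 per captured molecule, so counts of both genes were compared without dividing by length (the annotated S100a8 transcripts have 486 to 498 bases and those of S100a9 512 to 519). In the IgG library S100a9 had 1.15 UMIs per S100a8 UMI in the immature class (1.14 to 1.15), 1.55 in the resting class (1.55 to 1.56) and 2.53 in the activated class (2.51 to 2.55). In the S100A4-11 library the values were 1.12 (1.11 to 1.12), 1.49 (1.48 to 1.49) and 2.57 (2.54 to 2.59). The message was thus close to parity in immature cells and mostly S100a9 in activated cells of both libraries. How efficiently each message is captured is unknown, so the steps between classes are better grounded than the distance from 1.

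The same order was present cell by cell. Among cells with at least 20 UMIs of both genes, the median S100a9 share of those UMIs was 54.97% and 54.2% in the immature class, 62.1% and 60.8% in the resting class and 74.2% and 75.4% in the activated class. The SD of the share between cells was 9.25 and 8.74 percentage points in the immature class, against 1.28 and 1.34 that counting alone would give. In the activated class it was 12.1 and 12.2 points against 3.91 and 4.23. Cells of one class therefore differed in the balance of the genes by more than counting error. S100a9 was the larger of the 2 in 80.3% and 75.5% of immature cells, 94.96% and 94.1% of resting cells and 97.9% and 98.5% of activated cells. Over cells with at least 20 UMIs of both genes, log2 levels of the genes correlated weakly to moderately within a class. In the immature class r was 0.266 and 0.557 over 391 and 298 cells. In the activated class r was 0.656 and 0.677 over 985 and 977 cells. The cells of a class share a library and differ in depth, and both genes of a cell were counted at the same depth, so these r are descriptions.

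A tail of immature cells had little S100a9. The S100a9 share was under 25 percent in 7 of 391 immature cells of the IgG library, with medians of 1143 S100a8 UMIs and 73 S100a9 UMIs per cell, and in 3 of 298 of the S100A4-11 library, with medians of 1190 and 150. All of these cells had UMIs of Retnlg and Csf3r, as nearly all immature cells did, and their median doublet score was 0.0216 and 0.0275. They were picked out after their values were seen.

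**Figure D2:**
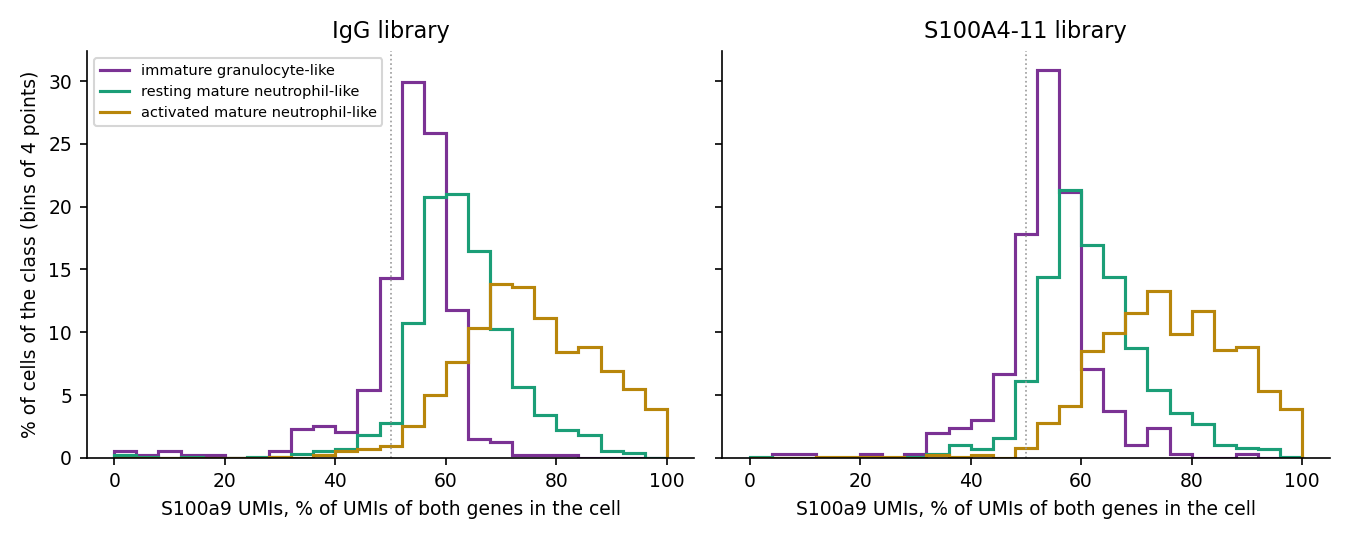
Share of S100a9 among the UMIs of both genes in each cell with at least 20 such UMIs, as the percent of cells of a class in bins of 4 percentage points, for the 3 granulocyte classes of the IgG library (left) and the S100A4-11 library (right). The dotted line marks equal counts, and the medians move from 54.97% and 54.2% in the immature class to 74.2% and 75.4% in the activated class.

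The level of S100a8 and S100a9 also followed the granule transcripts of the single cell. The cells of the 3 granulocyte classes were placed in 4 ranges of the share of their other UMIs that came from 6 granule genes. S100a8 stood at 24695 and 19648 CPM in cells with no granule transcript, at 36389 and 33656 CPM under 0.1 percent, at 60808 and 59526 CPM from 0.1 to 1 percent and at 106349 and 109209 CPM at 1 percent or more. S100a9 stood at 55712 and 47091, 67855 and 62057, 88920.2 and 86260.5, and 121723 and 119275 CPM. These ranges overlap the classes, since granule genes are among the immature markers: the highest range was 86.4% and 81.0% immature class and the lowest 72.0% and 82.0% activated class, so the order is no independent result. In the highest range (273 and 195 cells) both genes together made up 22.8% of all UMIs in each library. The ratio of S100a9 to S100a8 went from 2.26 to 1.86, 1.46 and 1.14 in the IgG library and from 2.40 to 1.84, 1.45 and 1.09 in the S100A4-11 library.

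Depth moved along with this order, with median UMIs per cell from 3050.0 and 2821 in the lowest range to 9766 and 8866 in the highest. Within cells of 2000 to 6000 UMIs, S100a8 still went from 25752 to 73771 CPM in the IgG library and from 20592 to 86375 CPM in the S100A4-11 library, and the ratio from 2.26 to 1.47 and from 2.39 to 1.35. The highest range then held 31 and 38 cells. These are ranges and not cell types: 110 and 97 cells lay within 10 percent of the limit at 0.1 percent, and 67 and 45 within 10 percent of the limit at 1 percent.

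**Figure D3:**
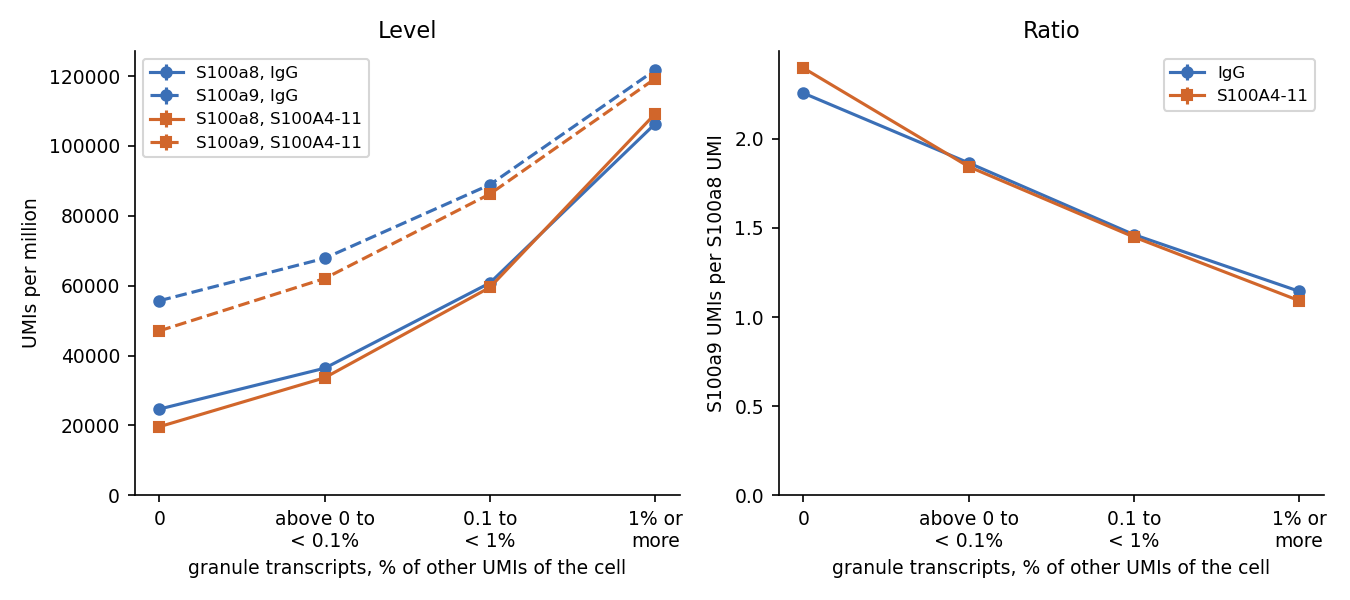
Left, level of S100a8 (solid) and S100a9 (dashed) in CPM over all granulocytes in 4 ranges of the share of granule transcripts, for both libraries, with 95% counting intervals that are mostly smaller than the symbols. Right, S100a9 UMIs per S100a8 UMI in the same ranges, from 2.26 and 2.40 in cells without granule transcripts to 1.14 and 1.09 in cells with the most.

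Classical monocyte-like cells were far below every granulocyte class, and most of their UMIs came from few cells. S100a8 was at 1026 CPM in the IgG library (996 to 1056) and 623 CPM in the S100A4-11 library (599 to 647), and S100a9 at 972 (943 to 1001) and 516 (494 to 538) CPM. The median cell held 1 and 1 UMIs of S100a8 and 1 and 0 of S100a9. Cells with over 100 UMIs of both genes, 20 of 412 and 12 of 447, held 75.03% and 69.6% of the UMIs of both genes in the class.

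Both genes were past 1.5-fold lower in the S100A4-11 library in this class, at a ratio of 0.607 (0.578 to 0.637) for S100a8 and 0.531 (0.504 to 0.559) for S100a9. Of 10208 genes measured there, 4.03% passed 1.5-fold in either direction, 1.96% being higher and 2.07% lower. In cells of at most 100 UMIs of both genes alone, the ratios were 0.653 and 0.727. The result rests on which cells enter the class: with a minimum of 500 genes per cell the ratios were 0.908 and 1.07, and with called doublets kept 0.809 and 0.869. Of 13 granulocyte genes taken as gauges of free RNA, 11 were measured in this class. Past 1.5-fold, 3 of them were lower, Wfdc21 (0.454), Stfa2l1 (0.249) and G0s2 (0.517), and none was higher, beside 2.07% and 1.96% of all genes. Retnlg, of the same list, was at 22.7 and 30.4 CPM. The list median of the log2 ratio was -0.17, beside -0.02 over all genes. The part of these genes in the result was not tested.

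The monocytes with low counts differed from granulocytes and from the background in the balance of the 2 genes. Among cells of at most 10 UMIs of both genes, monocytes held 1.93 (1.79 to 2.08) and 1.63 (1.51 to 1.76) such UMIs on average, and 0.507 (0.430 to 0.596) and 0.517 (0.439 to 0.608) S100a9 UMIs per S100a8 UMI. In cell types taken not to make the genes, cells chosen in the same way held 0.949 and 0.736 UMIs at a ratio of 1.87 (1.785 to 1.964) and 1.95 (1.84 to 2.06). Monocytes of 11 to 100 UMIs, 44 cells (10.7%) and 27 cells (6.04%), had a ratio of 0.247 and 0.238. Those of 3 to 10 UMIs were at 0.350 and 0.326, and those of 1 to 2 UMIs were near parity at 0.949 and 0.977. Monocytes of over 100 UMIs were at 1.32 and 1.16. The excess of S100a8 over S100a9 was thus found in both libraries, mainly in cells of 3 to 100 UMIs. It ran against the background, in which S100a9 was the larger. A UMI of either gene was found in 80.8% and 68.7% of classical monocyte-like cells at median depths of 10577 and 9097, and in 57.1% and 49.3% of T cell-like cells at median depths of 3942 and 3999. After thinning each cell to 500 UMIs the shares were 19.8% and 15.2%, against 12.2% and 10.1% of T cell-like cells but 16.8% and 14.0% over all classes that do not make the genes, and 18.9% and 19.0% in pericyte or smooth muscle cell-like cells. By the thinned share, a UMI of either gene hardly set the monocytes apart from those classes as a whole. Thinning weighs more on deep cells, since the background rose less than depth did. Type 2 alveolar epithelial-like cells, which are of like depth, had 11.0% and 10.9% after thinning. Without thinning, 62.2% and 56.6% of cells of 8000 to 16000 UMIs in the classes that do not make the genes had a UMI. Taken alone, S100a8 was in 16.4% and 11.7% of thinned monocytes against 7.20% and 5.68% over those classes, and S100a9 in 9.67% and 7.04% against 11.9% and 10.01%.

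Among the 49 and 26 monocytes with at least 20 UMIs of both genes, the balance of S100a8 and S100a9 ran over a wide range. An S100a9 share under 25 percent was found in 22 cells of the IgG library, with medians of 40.5 S100a8 UMIs and 3 S100a9 UMIs, and in 12 cells of the S100A4-11 library, with medians of 26.5 and 2.5. A share from 25 to under 50 percent was found in 11 and 4 cells, with medians of 34 and 202 S100a8 UMIs and 26 and 138 S100a9 UMIs. A share of 50 percent or more was found in 16 and 10 cells, with medians of 88 and 50.5 S100a8 UMIs and 193.5 and 97.5 S100a9 UMIs. The genes that follow were picked after their values were seen. The granulocyte gene Stfa2l1 was in 0 of 22 and 0 of 12 S100a8-dominant cells and in 11 of 16 and 5 of 10 cells with more S100a9, and Retnlg in 0 and 1 against 9 and 2. G0s2 was in 7 of 22 and 4 of 12 against 12 of 16 and 7 of 10. Ly6c2, a marker of classical monocytes, was in 95.5% and 83.3% of S100a8-dominant cells and in 73.6% and 79.5% of monocytes with at most 2 UMIs of both genes. Chil3 was in 77.3% and 91.7% against 40.4% and 46.3%. Of the cells with more S100a9, 12 of 16 and 10 of 10 had Ly6c2, so against these its order was reversed in the S100A4-11 library. Chil3 was in 9 of 16 and 6 of 10 of them. Csf3r was in 16 of 22 and 11 of 12 S100a8-dominant cells against 15 of 16 and 7 of 10, so its order differed between the libraries. It was also in 64.8% and 71.4% of monocytes with at most 2 UMIs of both genes. The median doublet score was 0.013 and 0.013 in S100a8-dominant cells and 0.074 and 0.029 in those with more S100a9. S100a8-dominant monocytes thus lacked Stfa2l1 UMIs in both libraries. This does not set them apart from other monocytes, as Stfa2l1 was in 0.8% and 0.621% of those with at most 2 UMIs of both genes.

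**Figure D4:**
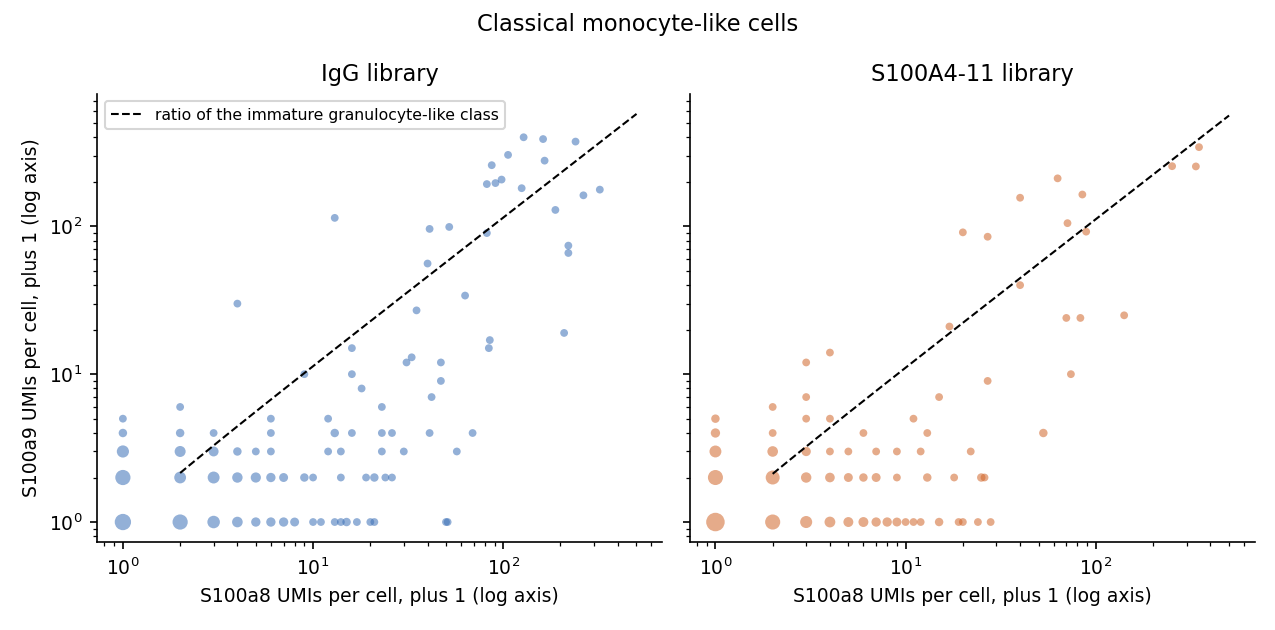
S100a9 against S100a8 UMIs per classical monocyte-like cell, each plus 1 on log axes, for the IgG library (left, 412 cells) and the S100A4-11 library (right, 447 cells), with larger points where cells share the same counts. The dashed line is the ratio of the immature class of that library (1.15 and 1.12), and the 44 and 27 cells with 11 to 100 UMIs of both genes, at 0.247 and 0.238 S100a9 UMIs per S100a8 UMI, lie mostly below it.

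Nonclassical monocyte-like cells had low levels of S100a8 and S100a9, in the balance of the background. S100a8 was at 215 (197 to 233) and 121 (108 to 135) CPM and S100a9 at 548 (520 to 577) and 195 (178 to 212) CPM in nonclassical cells (483 and 572), whose median cell held no UMI of either gene taken alone. In the IgG library 2 cells with over 100 UMIs of both genes held 70.4% of the class's UMIs of both genes, and 1 cell of the S100A4-11 library held 27.6%. Over cells of at most 10 UMIs the mean was 1.04 (0.9503 to 1.14) and 0.914 (0.837 to 0.996) UMIs, at a ratio of S100a9 to S100a8 of 1.72 (1.43 to 2.07) and 1.83 (1.52 to 2.20), whose intervals include those of the background. The mean was above the background of 0.736 (0.716 to 0.757) in the S100A4-11 library, and its interval began just above the background mean of 0.949 in the IgG library. Both genes were past 1.5-fold lower in the S100A4-11 library, at 0.564 (0.491 to 0.647) and 0.355 (0.321 to 0.393), where 4.95% of 9679 genes passed and 3.22% were lower. Of the 563 S100a8 and 1436 S100a9 UMIs of the class in the IgG library, the 2 cells with over 100 UMIs held 331 and 1076. The 1 such cell of the S100A4-11 library held 121 of 333 and 119 of 535. These ratios thus rest on few cells. With every cell weighing the same the ratios were 2.699 and 1.72 in the other direction. The 1 cell of the S100A4-11 library with over 100 UMIs of both genes had only 634 UMIs in all, and its part in this change was not tested.

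Cell types taken not to make S100a8 or S100a9, which was not tested, served as a gauge of free RNA. They were B, T, NK and innate lymphoid cells, endothelial and lymphatic endothelial cells, fibroblasts, pericytes or smooth muscle cells and alveolar and airway epithelium, with 8025 IgG cells and 7150 S100A4-11 cells. A UMI of either gene was found in 58.2% (57.1 to 59.3) and 49.0% (47.8 to 50.1) of them, at median depths of 3439 and 3089, and in 16.8% and 14.0% after thinning to 500 UMIs. The median cell held 1 and 0 UMIs of both genes, and cells of at most 10 UMIs held 0.949 (0.928 to 0.971) and 0.736 (0.716 to 0.757) on average. The latter cells had 1.87 and 1.95 S100a9 UMIs per S100a8 UMI, against 1.44 and 1.44 over all granulocyte classes. The larger classes had shares within a narrow range, with 53.0% and 45.6% of B cell-like, 57.1% and 49.3% of T cell-like, 58.6% and 48.2% of NK cell-like, 59.2% and 49.9% of endothelial-like and 58.6% and 49.3% of fibroblast-like cells. The B cell-like interval (49.6 to 56.3) lay below the endothelial-like one (57.6 to 60.8) in the IgG library. Type 2 alveolar epithelial-like cells, which are deeper (medians 10012 and 8944), had 64.3% and 56.6%, and the small lymphatic endothelial-like (34 and 32 cells) and type 1 alveolar epithelial-like (43 and 7 cells) classes 41.2% and 43.8%, and 46.5% and 28.6%.

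The background of S100a8 and S100a9 varied little with the depth of the cell up to 4000 UMIs. The share of cells with a UMI of either gene was 54.5% and 44.0% in cells of 500 to 1000 UMIs and 56.1% and 47.7% in cells of 2000 to 4000 UMIs. It reached 75.5% and 68.5% in cells of 16000 UMIs or more. Expressed as CPM, the same floor was lower in deeper cells, from 1157 and 892 CPM at 500 to 1000 UMIs to 68.5 and 61.4 CPM at 16000 or more. Discarded barcodes with under 200 genes, in which haemoglobin took 51.5% and 62.1% of UMIs, had a UMI of either gene in 58.2% and 36.6%.

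A few cells, and not the floor, set the mean level of these classes. Cells with over 10 UMIs of both genes, 143 (1.78%) and 91 (1.27%), held 85.1% and 83.2% of the UMIs of both genes in the classes that do not make them. Of the cells with over 100 UMIs, 90 and 49, the granulocyte gene Csf3r was present in 95.6% and 93.9%, against 2.30% and 2.05% of cells at the floor. Those cells were deeper, with medians of 9690 and 6479 UMIs against 3392 and 3069, and had higher doublet scores, with medians of 0.131 and 0.0864 against 0.0185 and 0.0156. Class levels are therefore not comparable between the libraries here: S100a8 was at 544 and 1383 CPM in fibroblast-like cells, where 1 library is higher, and at 666 and 57.0 CPM in the class of innate lymphoid and gamma-delta T cells, where the other is. In airway epithelial-like cells of the S100A4-11 library, 1 cell of 22 held 99.6% of the UMIs of both genes.

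**Figure D5:**
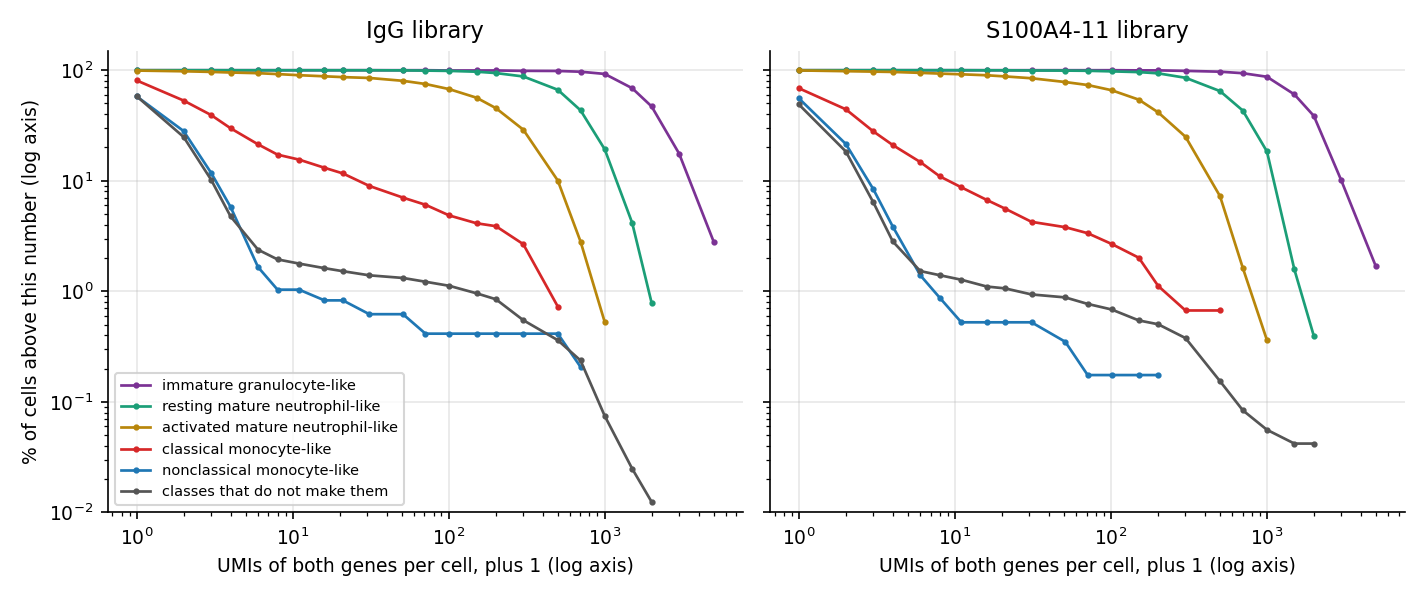
Percent of cells above a given number of UMIs of both genes (plus 1), both axes on a log scale, for the 3 granulocyte classes, the monocyte classes and all classes that do not make the genes, in the IgG library (left) and the S100A4-11 library (right). Above 10 UMIs lie 1.04% and 0.524% of nonclassical monocyte-like cells, 15.5% and 8.72% of classical ones and 1.78% and 1.27% of the cells of classes that do not make the genes.

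Set against the granulocytes, the floor of S100a8 and S100a9 was near the level of some granulocyte genes in the same cells and below that of others. The cells at the floor were chosen for at most 10 UMIs of these 2 genes. This limit caps the 2 genes directly and the others not, so the order of the genes is no independent result. Over all cells of these classes, S100a8 was at 2.22 and 1.73 and S100a9 at 4.05 and 2.61 UMIs per cell. The cells at the floor held 0.112% and 0.0996% of the mean S100a8 UMIs of a granulocyte, and 0.146% and 0.135% of those of S100a9. For Retnlg the values were 0.101% and 0.103%, for Mmp8, a collagenase of specific granules, 0.140% and 0.168%, for Stfa2l1 0.193% and 0.156%, and for Ngp 0.0505% and 0.0644%. With 295 and 251 S100a8 UMIs and 424 and 361 S100a9 UMIs per granulocyte, these shares came to 0.3305 and 0.2499 S100a8 UMIs and 0.619 and 0.486 S100a9 UMIs per cell at the floor. Higher shares were found for Cxcr2 (0.265% and 0.345%), Csf3r (0.381% and 0.427%), Il1b (0.555% and 0.424%), G0s2 (0.566% and 0.433%), Cxcl2 (0.631% and 0.357%), Lcn2 (1.38% and 1.08%) and Srgn (5.49% and 6.64%). Srgn had a UMI in 62.8% and 67.8% of the cells at the floor. Lcn2 had one in 4.96% and 3.29%, at 0.290 and 0.178 UMIs per cell. Whether these cells make such genes themselves was not tested, so the higher shares are no gauge of free RNA alone.

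The S100a8 and S100a9 floor was lower in the S100A4-11 library, and the floor of lung epithelial genes was lower by more. In T cell-like cells, Sftpc, the surfactant gene of type 2 alveolar cells, was at 0.903 and 0.305 UMIs per cell, and Scgb1a1, the club cell secretory gene, at 0.630 and 0.0138. In activated mature neutrophil-like cells, Sftpc was at 0.887 and 0.293 and Scgb1a1 at 0.673 and 0.0190 UMIs per cell. In T cell-like cells of at most 10 UMIs of both genes, S100a8 and S100a9 together were at 0.892 and 0.719 UMIs per cell. The floor thus differed between the libraries to an unequal degree by source. No granulocyte or monocyte level given here was corrected for it.

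Over 34 points, 17 classes in each of the 2 libraries, the levels of S100a8 and S100a9 correlated at r 0.991 on the log2 scale. The 10 genes of 8013 whose pattern was most like both were Mmp9 (mean r 0.975), G0s2 (0.962), Retnlg (0.953), Slfn4 (0.949), Grina (0.949), Mirt2 (0.948), Cxcr2 (0.946), Tarm1 (0.941), Il1f9 (0.940) and Stfa2l1 (0.940). Points share libraries and free RNA, so these r are descriptions. Within granulocytes the likeness differed: Retnlg went from 17982 and 17534 CPM in the immature class to 582 and 610.2 in the activated class, a steeper course than S100a8. G0s2, an inhibitor of fat breakdown, stood at 8818 and 9600.1 CPM in the immature and 11178 and 11074 CPM in the activated class, and the chemokine receptor gene Cxcr2 at 599.9 and 550.5 and at 651 and 619 CPM.

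Of the receptors and signalling partners of extracellular S100A8 and S100A9, Cd14, the co-receptor of TLR4, was abundant where S100a8 and S100a9 were. Cd14 was at 7889 and 7724 CPM in the immature, 10732 and 9674 in the resting and 10519 and 9466 in the activated class, and at 3799 and 3486 CPM in classical monocyte-like cells. Tlr4 was at 131 and 117 CPM in the immature and 259.7 and 206 CPM in the activated class. Tlr4 thus ran opposite to S100a8 over the stages in both libraries, and its ratio between the libraries in the activated class was 0.792 (0.717 to 0.874). Of 15 genes of this list measured in each granulocyte class, none passed 1.5-fold in the immature class, 1 was higher (Ly96, 1.66) and 2 lower (Ager, 0.442, and Cd69, 0.629) in the resting class, and 2 were lower (Ager, 0.397, and Cd69, 0.610) in the activated class. Of all genes, 2.19% were higher and 3.51% lower in the resting class, and 4.47% and 1.94% in the activated class. Ager, the RAGE gene, is known as a gene of type 1 alveolar cells, and its value in the activated class rests on 44 and 17 UMIs. None of 13 passed in classical and 1 of 14 (Ager, 0.443) in nonclassical monocyte-like cells. List medians of the log2 ratio were -0.02, -0.03, -0.01, -0.12 and -0.16 in these classes, beside 0.05, 0.01, 0.06, -0.02 and -0.04 over all genes.

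Of the transcription factors reported to act on S100a8 and S100a9, Cebpb and Spi1 were not highest in the immature class, while Cebpe was. Cebpb, a C/EBP factor, was at 6054 and 6059 CPM in the immature, 10784 and 10806 in the resting and 11623 and 11660.1 CPM in the activated class, and its ratio between the libraries was 1.001, 1.002 and 1.003. Spi1, which encodes PU.1, was at 945 and 919, 956 and 998.6 and 762 and 824 CPM. Cebpe, the factor of late granule genes, was at 20.8 and 24.9 CPM in the immature class, and in the resting and activated classes it had at most 12 UMIs per library. In the immature class 2 of 10 measured factors were higher in the S100A4-11 library, Klf5 (1.77) and Irf8 (10.3 and 20.1 CPM), each on under 70 UMIs per library, beside 4.84% of all genes. None of 10 passed in the other 4 classes, where 5.70%, 6.41%, 4.03% and 4.95% of all genes did. List medians were 0.19 in the immature class and 0.04, 0.07, 0.01 and -0.03 in the others.

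Genes reported downstream of the pair or of TLR4 in the lung before metastasis included 2 that were lower with S100A4-11 in several classes. Saa3, a serum amyloid gene that attracts myeloid cells, was at 71.2 and 10.8 CPM in the immature class (ratio 0.152), at 135 and 43.0 in the resting class (0.319) and at 579 and 212 in classical monocyte-like cells (0.366). In the activated class it was at 388 and 293 CPM (0.754). These are low counts, 284 and 29 UMIs over the immature and 825 and 202 over the resting class. T cell-like cells held 7 and 31 Saa3 UMIs in all and endothelial-like cells 13 and 8, and interstitial macrophage-like cells 0 and 348, so the order of the libraries was not the same in every class. Cxcl3, a chemokine for neutrophils, was at 406 and 270.2 CPM (0.665), 1063 and 582 (0.547) and 641 and 279 CPM (0.435) in the 3 granulocyte classes, while S100a8 and S100a9 stayed between 0.908 and 1.02. Cxcl1 was lower in the immature class (0.474) and in classical monocyte-like cells (0.665). In the immature class 5 of 14 measured members were lower (also Ccl2, 0.117, on 38 and 3 UMIs, and Nos2, 0.366) and 2 higher (Nlrp3, 1.58, and Ptgs2, 1.52), beside 2.25% and 4.84% of all genes. In the resting class 2 of 14 were lower (3.51% of all genes), in the activated class 2 of 14 (with Nos2, 0.390, beside 1.94%) and in classical monocyte-like cells 2 of 14 (2.07%). In nonclassical ones 2 of 13 were lower (Saa3, 0.406, and Il18, 0.654, beside 3.22%) and 2 higher (Cxcl3, 2.96, and Il6, 2.05, beside 1.73%). List medians were 0.02, -0.05, 0.01, -0.16 and -0.07.

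Other S100 genes had levels far under those of S100a8 and S100a9 in granulocytes. S100a6 was at 10701 and 9780 CPM in the immature, 5011 and 5572 in the resting and 1567 and 1563 CPM in the activated class, and S100a11 at 7393 and 6764, 6614 and 6044, and 3933 and 3641 CPM, so both stepped down over the stages as S100a8 did. S100a4, the gene of the protein in the series title, was in granulocytes at 6.77 and 6.70 CPM in the immature class and 2.503 and 14.3 CPM in the activated class (9 and 50 UMIs, past 1.5-fold higher), and in classical monocyte-like cells at 906 and 934 CPM. Past 1.5-fold lower were S100a1 in the immature class (0.517) and S100a10 in the resting class (0.581), of 6 and 7 measured, beside 2.25% and 3.51% of all genes. In the activated class S100a4 was the 1 of 7 that passed, beside 4.47% higher, and none of 6 and 7 passed in the monocyte classes. List medians were -0.16, -0.09, 0.22, -0.03 and -0.19.

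Cytosolic and granule genes of neutrophils differed little between the libraries in the granulocyte classes. Of 18, 18 and 17 measured members, 1 was higher in the immature class (Chil3, 1.73), none passed in the resting class and 1 was higher in the activated class (Cybb, a subunit of the NADPH oxidase, 2.32), with medians of -0.01, 0.04 and -0.03. Of all genes 4.84% were higher in the immature and 4.47% in the activated class, and 5.70% passed either way in the resting class. In classical monocyte-like cells 3 of 14 were lower, Wfdc21, Stfa2l1 and the formyl peptide receptor gene Fpr1 (0.251), and in nonclassical ones 4 of 14 were lower, namely Ngp (0.103) on 65 and 7 UMIs, Wfdc21 (0.283), Stfa2l1 (0.0894) and Fpr2 (0.603), and 1 higher (Chil3, 1.99), with medians of -0.11 and -0.27. Of all genes 2.07% were lower in classical cells, and 3.22% lower and 1.73% higher in nonclassical ones.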

How the data were processed

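Single-cell RNA of lung was captured with the 10x 5' kit V2 and sequenced on DNBseq, per the labels' protocols. The authors deposited raw UMI counts per gene and barcode, made with Cell Ranger 7.1.0 on mm10, per the submitters' processing notes. Aligned reads were not used here. The IgG library had 14411 barcodes and 85458143 UMIs, the S100A4-11 library 12506 and 64695542. Barcodes with under 200 genes or over 15 percent mitochondrial UMIs were left out (67 and 59, 101 and 40), as were Scrublet doublets (686, 4.80%, and 610, 4.93%), called per library without the 2 genes. Cells were clustered with scanpy 1.11.5 with Python 3.11.15 (2000 variable genes, 30 components, 15 neighbours, Leiden resolution 1). A cluster took a class name from 3 or more markers present in 25 percent of its cells at 2-fold. This rule was set after the clusters were seen. The members, gene lists and markers were chosen with earlier results of these data known. CPM are counts of a gene scaled to the total UMIs of its class. Ratios carry conditional binomial intervals, and shares Clopper-Pearson intervals. UMIs of S100a8 or S100a9 in free RNA are part of every value. A gene counted as past the fold at 1.5-fold with an interval excluding 1, among genes of 20 or more UMIs over both libraries. Log2 medians used a pseudocount of 0.5. Named genes were list members past 1.5-fold and the 10 most like the pair. The rule also took the 4 members of each list with the bound farthest from 1, of which those under 1.5-fold are mostly given by counts. Others named by role were chosen after their values were seen. The ratio and thinning steps were tested on simulated data.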

Additional observations from a re-analysis of the deposited data

How the results depend on the processing

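Values are ratios of S100A4-11 over IgG for S100a8 and then S100a9 unless said otherwise; the stage contrasts are S100a8 immature over activated, and the ratio contrasts are S100a9 to S100a8 activated over immature, IgG first. With every barcode kept, the ratios were 1.01 and 0.978 (immature), 0.985 (S100a9, resting), 0.956 and 0.957 (activated), 0.578 and 0.565 (classical) and 1.01 and 1.03 (nonclassical), the stage contrasts 4.64 and 4.91, the ratio contrasts 2.12 and 2.19, and the background 6.90 and 3.47 UMIs per cell, against 6.27 and 4.34 in the reported processing. With at least 500 genes they were 1.01 and 0.989, 0.937 (S100a9, activated), 0.908 and 1.07 (classical), with contrasts of 4.62 and 5.13 and of 2.13 and 2.24 and a background of 6.47 and 4.44. With doublets kept they were 1.01 and 0.979, 0.975 (S100a9, resting), 0.938 (S100a9, activated), 0.809 and 0.869 (classical) and 1.09 (S100a8, nonclassical), with contrasts of 4.24 and 4.69 and of 2.03 and 2.15 and a background of 18.9 and 11.7. With the highest 10 percent of doublet scores removed they were 1.01 (S100a8, resting), 0.963 and 0.952 (activated), 0.757 and 0.787 (classical) and 1.04 (S100a9, nonclassical), with a background of 2.26 and 1.36. With S100a8 and S100a9 kept in for clustering they were 0.995 and 0.970 (resting), 0.932 (S100a9, activated), 0.576 (S100a8, classical) and 1.48 and 1.68 (nonclassical), with a background of 7.90 and 4.01. Leiden resolution 0.5 gave 0.953 and 0.936 (activated) and 0.476 (S100a9, classical), contrasts of 2.32 and 2.40 and of 1.504 and 1.51, and a background of 7.13 and 3.82. Resolution 2 gave 1.03 and 0.994 (immature), 1.04 (S100a8, resting) and 0.890 (S100a8, activated), contrasts of 4.27 and 4.95 and of 1.95 and 2.10, and a background of 6.65 and 3.65. Each library clustered alone gave 0.612 and 0.767 (resting), 0.595 and 0.747 (activated) and 0.584 (S100a9, classical), contrasts of 5.07 and 2.21 in the S100A4-11 library, and a background of 7.11 and 3.57. With every cell weighing the same, the ratios were 1.003 and 0.991 (immature), 0.918 and 0.947 (activated), 0.493 (S100a9, classical) and 2.699 and 1.72 (nonclassical), and the stage contrasts 5.55 and 6.06. Totals without the 2 genes gave 0.983 and 0.959 (immature) and 5.92 and 6.46. Median-of-ratios scaling gave 0.962 and 0.938 (immature), 0.976 (S100a9, resting) and 0.869 and 0.882 (activated), and TMM (edgeR) 0.940 and 0.917, 1.01 and 0.965, and 0.869 and 0.882. Medians over cells gave ratio contrasts of 2.36 and 2.59 (20 or more UMIs) and 2.39 (100 or more, S100A4-11). The background was 2.03 and 1.41 without the top 1 percent of cells, 1 and 0 as a median, 1.3004 and 1.73 in cells of 1000 to 4000 UMIs, and 0.949 and 0.736 in cells of at most 10 UMIs of both genes. The last of these, the limit of 100 UMIs for monocytes (0.653 and 0.727) and the removal of the shallow cluster (4.80 and 5.22) were chosen after seeing the data. The cause of each change was not tested. Of the alternatives of the main results 113 moved outside the counting interval, 1 reversed and 46 stayed within it. Of the other values 57 stayed, 17 moved and 8 reversed, all 8 being ratios in nonclassical monocyte-like cells. No immature class was named with the highest doublet scores removed, with the genes kept in, or in the IgG library alone, and no resting or nonclassical class at resolution 0.5, so these gave no value. Leaving out a replicate was not possible with 1 library per group, and counts near the free RNA floor limit what can be said of the monocytes. No paired analysis was possible because each group has 1 library.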

Other observations

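Some clusters without a class name carried more S100a8 and S100a9 than the background in at least 1 library. One was led by type 1 alveolar genes (Ager, Krt7, Aqp5) mixed with endothelial markers, with 358 IgG cells and 58 S100A4-11 cells. Its median cell held 15 UMIs of both genes in the IgG library and 0 in the other. S100a8 was there at 1331 and 341 CPM, beside 442 and 403 over the classes of the background. Another, led by platelet genes (Pf4, Ppbp), had 133 and 135 cells. It was at 3336 and 2246 CPM of S100a8 and 5766 and 4592 CPM of S100a9, though its median cell held 1 and 1 UMIs of both genes. Called doublets, which were left out, held a median of 183 and 37 UMIs of both genes per barcode, and 55.8% and 44.9% of them had over 100.

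Alveolar macrophage-like cells (737 and 503) also departed from the background in the balance of the genes. Their cells of at most 10 UMIs held 1.09 and 0.928 UMIs of both genes on average, at 1.13 (0.978 to 1.302) and 1.07 (0.885 to 1.29) S100a9 UMIs per S100a8 UMI, between classical monocyte-like cells (0.507 and 0.517) and the background (1.87 and 1.95). Interstitial macrophage-like cells had 1.81 and 1.75.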
